A study of Mus musculus with 12 samples.

Results

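The genes described here are 42 genes of the transforming growth factor β (TGF-β) and bone morphogenetic protein (BMP) pathways. They were chosen by name, and all 42 had a probe set of their own among the 18193 genes measured. They comprise 9 ligands, 10 receptors and co-receptors, 8 Smads, 4 Id genes, 6 extracellular antagonists and binding proteins, 3 latent TGF-β binding proteins, and Bambi and Skil. Their mRNA was measured in cells and tissue of the mouse superior cervical ganglion (SCG), which holds sympathetic neurons of the neck, from the CD1 strain, on 12 Affymetrix arrays in 3 groups of 4 biological replicates. In the 2D group dissociated SCG cells were cultured in a polystyrene Petri dish, in the 3D group they were cultured in polystyrene scaffolds, and the tissue group is freshly dissected SCG. By the study's account the cells of both cultures were measured after several days in culture, so tissue and cultures differ in this too. The labels give an age of 21 days for every sample, whereas the study's methods describe neonatal mice. The methods also describe glass-bottom dishes for flat culture, a type I collagen coat on dishes and scaffolds, and a medium with serum and nerve growth factor. Cells of more than 1 ganglion shared a dish or scaffold, and no cell type was sorted, so neurons, glia and other ganglion cells were measured together. Expression levels are log2 values, on which a difference of 1 is a 2-fold change.

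TGF-β and activin ligands bind pairs of serine/threonine kinase receptors that phosphorylate Smad2 and Smad3, whereas BMPs act mainly through Smad1, Smad5 and Smad9. Smad4 is shared by both branches, and Smad6 and Smad7 are inhibitory Smads that the pathway itself induces. Id genes are classical BMP targets that encode inhibitors of basic helix-loop-helix transcription factors, and BMPs are known for inducing sympathetic neurons in the embryo and for promoting their dendrites in culture.

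Tissue replicates 2 and 3 stood apart from the other arrays. The SD of all values on an array was 2.14 and 1.93 on these, against 2.31 to 2.42 on the other 10, and the log2 excess of the 3′ over the 5′ control probe set of Gapdh was 3.45 and 3.05, against 0.36 to 1.27. Where leaving out these 2 arrays ended a call, the value without them is given too. For called values that only moved, it is given for a part of the members. The neuronal identity of the material was checked with Tubb3, which read 12.44 to 12.83 in tissue and 10.87 to 12.31 in culture. It was also checked with Th, the enzyme of the first step of noradrenaline synthesis, which read 11.05 to 13.45 in tissue and 9.44 to 12.44 in culture. Tubb3 does not stand for its whole list. Of 10 pan-neuronal markers, 2 were called higher in tissue against 2D and 4 against 3D, and 0 were called lower. RMA values carry no detection call, so low values may lie at background, and levels of different probe sets were not compared with each other. The whole ganglion was measured, so that fewer cells of a type and less RNA per cell cannot be told apart.

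Most pathway genes that differed were lower in tissue than in culture, and no member passed the test between the 2 cultures. Against 2D, 20 of 42 members (47.6%) were lower in tissue at a limma adjusted p under 0.05, where 14.3% of all genes were, and 2 (4.76%) were higher, where 9.87% of all genes were. Against 3D, 23 members (54.8%) were lower and 4 (9.52%) higher, against 20.1% and 15.5% of all genes. In either direction 22 and 27 members were called, where 24.1% and 35.6% of all genes were. The 4 tissue arrays did not overlap with the 4 of 2D for 22 members, 19 lower and 3 higher (18.5% and 15.3% of all genes, 33.8% in all), and with those of 3D for 27 members, 24 lower and 3 higher (24.1% and 18.3%, 42.4% in all). The median difference of the 42 members was -0.76 against 2D and -1.21 against 3D, and that of all genes was 0.03 in both comparisons. Genes of higher level were more often lower in tissue. A log2 value of 7 on at least 4 arrays was reached by 36 members and by 11228 of 18193 genes. Of these genes, 23.0% were lower against 2D and 31.4% against 3D, with a median of -0.26 in both. With this filter 20 and 24 members were lower, and their medians were -1.05 and -1.36. Between 3D and 2D, 0 members were called in either direction, where 3 of 18193 genes (0.0165%) were, all of them higher in 3D. Both tissue comparisons use the same 4 tissue arrays and are not independent of each other. A moderated F test over the 3 groups passed 30 of 42 members (71.4%) and 39.3% of all genes.

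**Figure D1:**
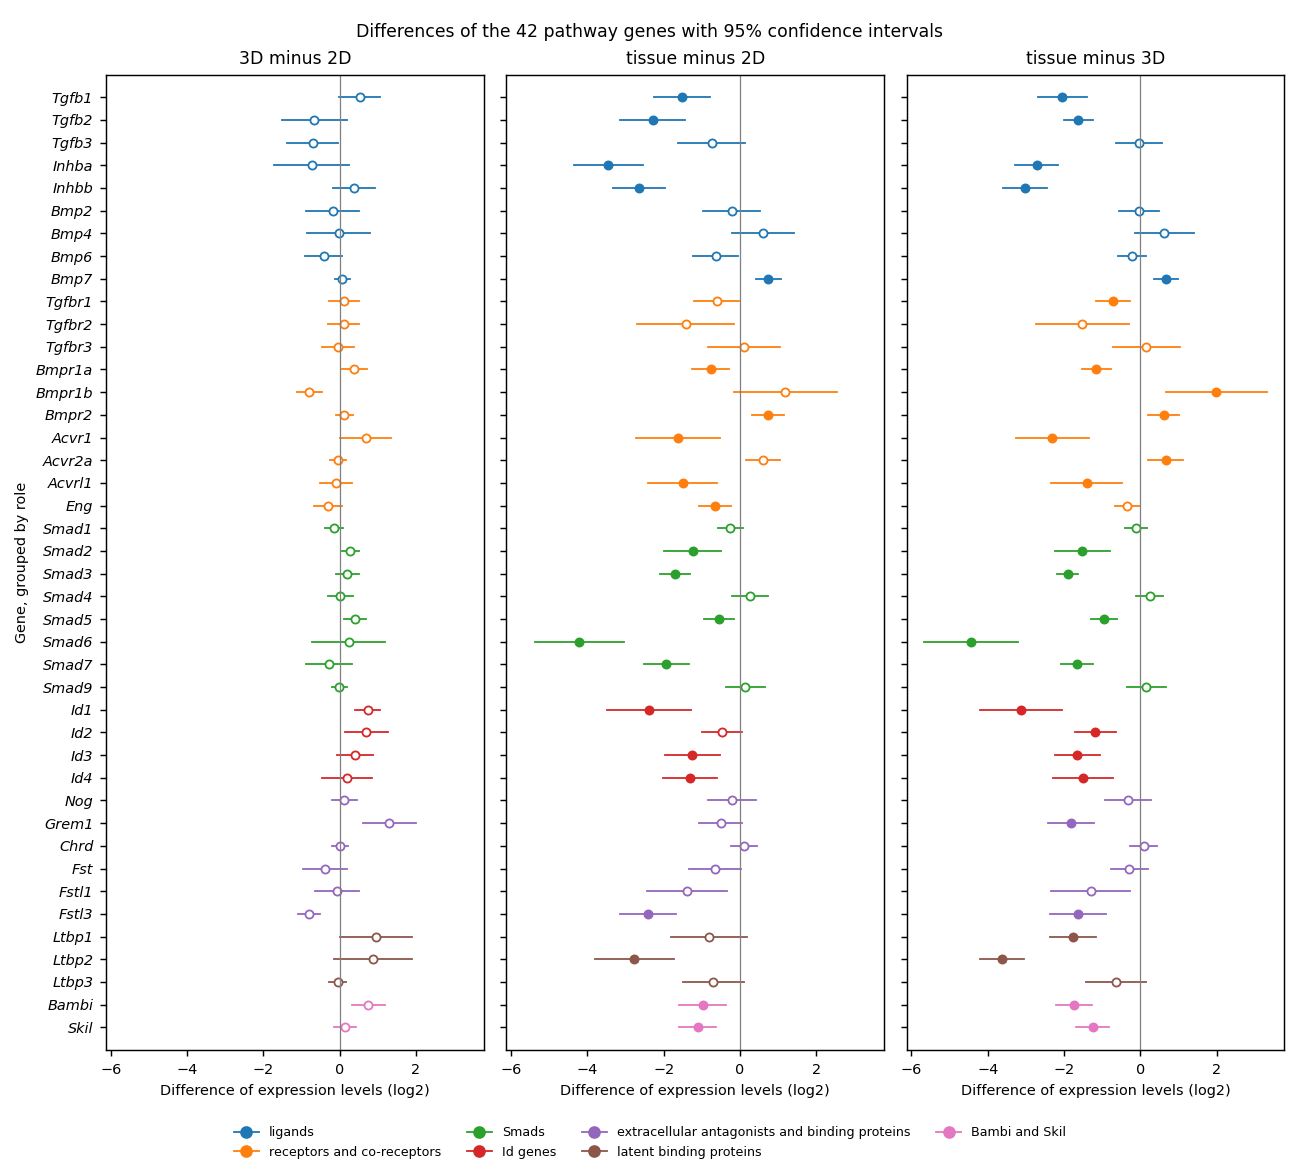
Differences of expression level (log2) of the 42 pathway genes with 95% confidence intervals between the 2 cultures and of the tissue from each culture, coloured by role, with filled points where the limma adjusted p was under 0.05. Most filled points lie to the left of 0 in both tissue panels (20 and 23 members), and there are none in the panel of 3D against 2D.

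These counts depended on single arrays and on the scaling. The 20 members lower against 2D became 12 without 2D replicate 1, 11 without 2D replicate 4 and 11 without tissue replicate 2. The share of all genes called lower fell too, from 14.3% to 9.38%, 8.60% and 8.11%. The 2 members higher against 2D became 1 without 2D replicate 1, 2 or 4 and 4 without tissue replicate 3. Against 3D, 21 to 25 members were lower whichever array was left out, where 14.0% to 24.0% of all genes were. The 4 that were higher became 1 without any of the 3D arrays and 2 without tissue replicate 2. Of the 22 calls against 2D, 12 held without each array in turn (Tgfb1, Tgfb2, Inhba, Inhbb, Bmp7, Smad3, Smad6, Smad7, Id1, Fstl3, Ltbp2 and Skil), and of the 27 against 3D, 22 did. Centring the arrays moved the median of all genes to 0.31. Of all genes called against 2D, 40.9% were higher before centring and 61.6% after it, and of those called against 3D, 43.5% and 60.6%. The median of the members stayed below 0, at -0.48 and -0.94. Under centring, cyclic loess and a further quantile normalization (the last chosen after seeing the data), 15 of 22 and 23 of 27 calls held, and 0 of the called members turned sign. Under at least 1 of these, Bmpr1a, Acvr1, Acvrl1, Eng, Smad5, Bambi and Skil missed the threshold against 2D, and Tgfbr1, Acvrl1, Id2 and Skil against 3D.

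Leaving out tissue replicates 2 and 3 together kept the direction of the lists. Against 2D, 13 members were then lower and 3 higher, where 12.3% and 10.1% of all genes were, and 14 of 22 calls were kept. Those lost were Tgfb1, Bmpr1a (-0.69, adjusted p = 0.071), Acvr1 (-0.91, adjusted p = 0.163), Eng (-0.52, adjusted p = 0.13), Smad5 (-0.54, adjusted p = 0.0553), Id3 (-0.86, adjusted p = 0.0784), Id4 (-0.81, adjusted p = 0.0644) and Bambi (-0.66, adjusted p = 0.131), and those gained were Bmpr1b and Ltbp3. Of the calls kept, Smad2 moved from -1.24 to -0.72 (adjusted p = 0.0171), Acvrl1 from -1.51 to -0.83 (adjusted p = 0.0266) and Id1 from -2.39 to -1.55. Fstl3 moved from -2.42 to -1.87 and Inhbb from -2.65 to -2.25, whereas Ltbp2 fell further, from -2.77 to -3.12. Against 3D, 25 members were lower and 7 higher, where 24.6% and 22.7% of all genes were, and 27 of 27 calls were kept. The 5 members gained there were Tgfb3 (0.44), Tgfbr3 (0.73) and Bmp4 (1.05), which were higher, and Tgfbr2 (-0.50) and Ltbp3 (-1.29), which were lower. Smad2 moved from -1.52 to -0.99, Acvrl1 from -1.41 to -0.73, Id4 from -1.50 to -1.0 and Fstl3 from -1.62 to -1.07. Acvr1 moved from -2.30 to -1.585 and Tgfb1 from -2.04 to -1.67, whereas Ltbp2 fell further, from -3.63 to -3.98.

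**Figure D2:**
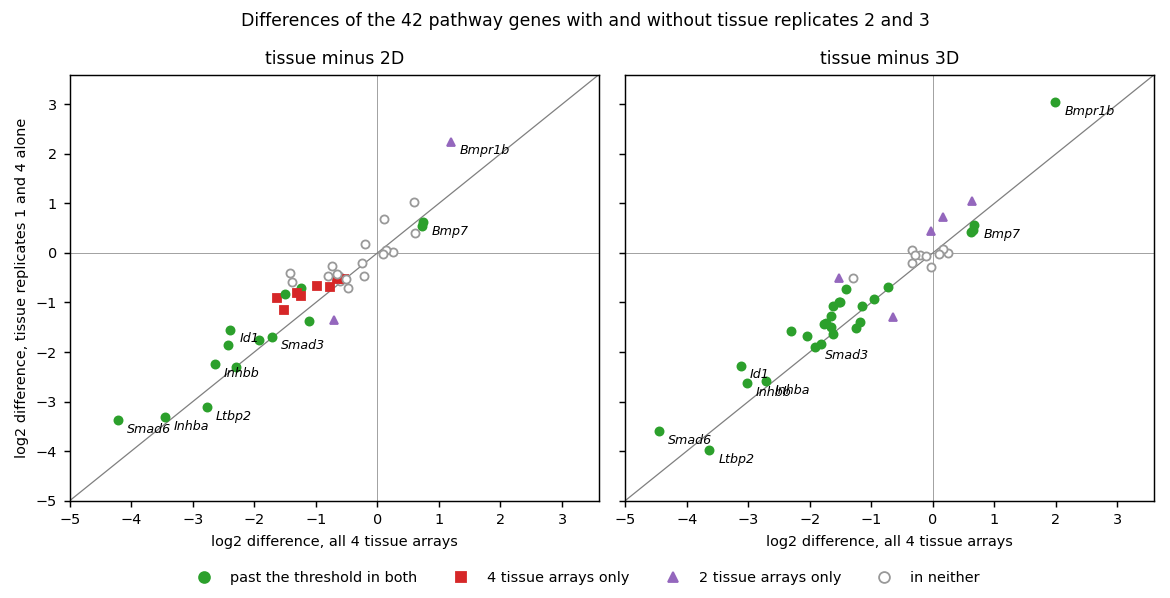
Differences of expression level (log2) of the 42 members from 2D and from 3D, computed with all 4 tissue arrays (horizontal axis) and with tissue replicates 1 and 4 alone (vertical axis), where the line marks equal values. Smad6, Inhba and Ltbp2 stay near the lower end in both, and Bmpr1b moves up to 2.24 against 2D and 3.04 against 3D.

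Among the ligands, the activin subunits and the TGF-β ligands 1 and 2 were lower in tissue than in either culture, whereas Bmp7 was higher. Against each culture 4 of 9 ligands were lower and 1 was higher. Of all genes, 14.3% were lower and 9.87% higher against 2D, and 20.1% and 15.5% against 3D. Inhba encodes the βA subunit of activins, which signal through Smad2 and Smad3. In replicates 1 to 4 its level was 10.42, 10.97, 10.41 and 12.33 in 2D, 9.68, 10.64, 10.71 and 10.17 in 3D, and 7.73, 7.16, 7.74 and 7.70 in tissue. The tissue arrays lay below every culture array, 10.9-fold lower than 2D (difference -3.45, SE 0.40, adjusted p = 0.000963) and 6.58-fold lower than 3D (-2.72, SE 0.25, adjusted p = 0.000113). Inhbb, the βB subunit, read 7.08, 7.41, 7.05 and 8.07 in 2D, 8.14, 7.63, 7.87 and 7.48 in 3D, and 5.27, 4.55, 4.17 and 5.04 in tissue. Again no tissue array reached a culture array, with differences of -2.65 (SE 0.30, adjusted p = 0.000869) from 2D and -3.02 (SE 0.26, adjusted p = 7.39e-05) from 3D. Tgfb2, a TGF-β ligand, read 9.58, 9.29, 10.23 and 11.22 in 2D, 9.47, 9.49, 9.06 and 9.64 in 3D, and 7.71, 7.56, 8.02 and 7.86 in tissue. It was lower in tissue by 4.90-fold against 2D (adjusted p = 0.00438) and 3.09-fold against 3D (adjusted p = 0.000199), with no overlap of arrays, and of its 3 other probe sets 3 were lower than in 2D and 2 than in 3D. The calls of the other 3 ligands that were lower rest on 1 probe set each. The second probe set, of lower mean level, differed from 2D by 0.16 for Inhba (adjusted p = 0.664), 0.0025 for Inhbb (adjusted p = 0.991) and 0.13 for Tgfb1 (adjusted p = 0.698), and none of these passed against 3D either.

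Tgfb1, the ligand for which the family is named, had a mean of 9.20 ± 0.48 in 2D, 9.72 ± 0.26 in 3D and 7.67 ± 0.58 in tissue (SD, n = 4 here and below). Its tissue level was lower than both, with differences of -1.52 (adjusted p = 0.0134) and -2.04 (adjusted p = 0.000874), but without tissue replicates 2 and 3 it no longer passed against 2D (-1.15, adjusted p = 0.0622). Bmp7, a ligand known to promote dendrites of sympathetic neurons, stood at 6.71 ± 0.05 in 2D, 6.78 ± 0.14 in 3D and 7.45 ± 0.18 in tissue. Every tissue array, from 7.33 to 7.72, lay above every culture array, from 6.62 to 6.95, with differences of 0.74 (SE 0.14, adjusted p = 0.00834) and 0.67 (SE 0.14, adjusted p = 0.00696). These calls of Bmp7 also rest on 1 of its 3 probe sets, and no other was called in either comparison. The other 4 ligands passed neither tissue test with all arrays. Their means in 2D, 3D and tissue were 8.81, 8.10 and 8.07 for Tgfb3, 6.63, 6.45 and 6.41 for Bmp2, 6.74, 6.71 and 7.33 for Bmp4, and 6.82, 6.39 and 6.18 for Bmp6.

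Of the 10 receptors and co-receptors, 4 were lower and 1 higher in tissue against 2D (14.3% and 9.87% of all genes), and 4 were lower and 3 higher against 3D (20.1% and 15.5% of all genes). Bmpr1b, a type I BMP receptor, had the widest spread among tissue arrays. It read 7.43, 7.05, 6.83 and 7.04 in 2D, 6.54, 6.31, 6.17 and 6.12 in 3D, and 9.15, 8.07, 6.38 and 9.51 in tissue. Replicate 3 of the tissue lay among the culture arrays and the other tissue arrays above them. Its difference was 1.19 (SE 0.59, adjusted p = 0.164) against 2D and 1.99 (SE 0.59, adjusted p = 0.0303) against 3D, and with all 4 tissue arrays the call against 3D was lost without any 3D array or tissue replicate 1, 2 or 4 (adjusted p up to 0.0765). Without tissue replicates 2 and 3 it was 2.24 (SE 0.19, adjusted p = 0.00144) and 3.04 (SE 0.15, adjusted p = 6.15e-06).

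Bmpr2, the type II BMP receptor, was higher in tissue, at 12.09 ± 0.32 against 11.36 ± 0.12 in 2D (adjusted p = 0.0239) and 11.47 ± 0.15 in 3D (adjusted p = 0.0285), with no overlap of arrays in either comparison. Acvr2a, a type II receptor of activins, was at 10.76 ± 0.38 in tissue, 10.14 ± 0.08 in 2D (adjusted p = 0.0537) and 10.10 ± 0.16 in 3D (adjusted p = 0.0318). Both genes lost the call against 3D without any 1 of the 3D arrays (adjusted p up to 0.0842 for Bmpr2 and 0.0881 for Acvr2a), Acvr2a lost it without tissue replicate 2 too, and Bmpr2 lost the call against 2D without 2D replicate 1, 2 or 4 (adjusted p up to 0.0759).

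The receptors lower in tissue included the type I receptors Bmpr1a, Acvr1 and Acvrl1. Acvr1 had means of 10.72 ± 0.64 in 2D, 11.39 ± 0.28 in 3D and 9.09 ± 0.95 in tissue, a difference of -1.63 from 2D with overlapping arrays (adjusted p = 0.042) and of -2.30 from 3D (adjusted p = 0.00361). For Bmpr1a the differences were -0.77 (adjusted p = 0.0356) and -1.16 (adjusted p = 0.00126). Acvrl1 and the co-receptor Eng, both best known from endothelial cells, differed from 2D by -1.51 (adjusted p = 0.0295) and -0.66 (adjusted p = 0.0374), and from 3D by -1.41 (adjusted p = 0.0283) and -0.34 (adjusted p = 0.0959, overlapping arrays). These 4 calls against 2D were lost without at least 5 single arrays each, among them 2D replicates 1, 2 and 4 and tissue replicate 2 for all 4 (adjusted p up to 0.11), and that of Acvrl1 against 3D without 3D replicate 1, 2 or 4 or tissue replicate 2 (adjusted p up to 0.0794). Endothelial markers were higher in tissue for 3 of 6 against 2D and 4 of 6 against 3D, and 0 were lower. The summed endothelial level was 9.67 to 10.8 in tissue and 8.34 to 9.81 in culture, and its part in these values was not tested. Tgfbr1, the type I TGF-β receptor, differed by -0.72 from 3D (adjusted p = 0.0224) and by -0.61 from 2D (adjusted p = 0.112), and it lost the call against 3D without any 1 of the 3D arrays (adjusted p up to 0.0628). Tgfbr2 and the co-receptor Tgfbr3 passed neither test with all arrays, with tissue means of 9.53 ± 1.29 and 11.21 ± 0.89, and tissue replicate 3 was the lowest of the 12 arrays for both.

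Among the 8 Smads, 5 were lower in tissue against each culture on the probe set that stood for them, and none was higher. The same Smad2, Smad3, Smad5, Smad6 and Smad7 were lower in both comparisons, where 14.3% and 20.1% of all genes were. Smad6, an inhibitory Smad that acts mainly on BMP signalling, had the largest difference of all 42 members in both tissue comparisons. It read 8.68, 8.95, 10.13 and 9.31 in 2D, 10.47, 9.42, 8.61 and 9.49 in 3D, and 5.38, 4.26, 4.16 and 6.41 in tissue. The highest tissue array lay more than 2 units below the lowest culture array. Smad6 was 18.6-fold lower than in 2D (-4.21, SE 0.52, adjusted p = 0.00121) and 21.8-fold lower than in 3D (-4.45, SE 0.54, adjusted p = 0.000487), and without tissue replicates 2 and 3 the differences were -3.37 (adjusted p = 0.0055) and -3.60 (adjusted p = 0.00049). Values as low as those of tissue replicates 2 and 3 may lie at background.

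Smad7, the inhibitory Smad of the TGF-β branch as well, read 9.37, 9.67, 10.61 and 10.06 in 2D, 10.10, 9.60, 9.38 and 9.51 in 3D, and 8.16, 7.91, 7.75 and 8.16 in tissue. All 4 tissue arrays were lower than all 8 culture arrays, with differences of -1.93 from 2D (3.82-fold, adjusted p = 0.00187) and -1.65 from 3D (3.14-fold, adjusted p = 0.000314). The second probe set of Smad7 passed neither test (-0.38 and -0.09, adjusted p = 0.492 and 0.85). Smad3, a transducer of TGF-β and activin signals, read 9.82, 10.23, 10.28 and 10.46 in 2D, 10.32, 10.46, 10.48 and 10.33 in 3D, and 8.56, 8.33, 8.62 and 8.45 in tissue. The tissue arrays lay close together and below every culture array, whereas those of the 2 cultures overlapped. Its difference of -1.91 from 3D (SE 0.12, adjusted p = 1.8e-05) had the smallest adjusted p of any member. Against 2D it was -1.71 (SE 0.17, adjusted p = 0.000425), also the smallest there, and tissue replicates 2 and 3 made little difference to it (-1.69 and -1.89 without them).

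Smad5, a BMP transducer, read 9.02, 9.18, 8.92 and 9.40 in 2D, 9.71, 9.52, 9.33 and 9.56 in 3D, and 8.61, 8.83, 8.30 and 8.58 in tissue. The tissue arrays lay below the culture arrays, with differences of -0.95 from 3D (adjusted p = 0.00189) and -0.55 from 2D (adjusted p = 0.0482), and the latter call was lost when any 1 of the 8 arrays was left out (adjusted p from 0.0569 to 0.129). Smad2, which acts with Smad3, read 10.06, 10.14, 9.80 and 9.82 in 2D, 10.19, 10.28, 10.12 and 10.33 in 3D, and 9.28, 8.69, 7.68 and 9.20 in tissue. On this probe set tissue differed by -1.24 from 2D (adjusted p = 0.0289) and by -1.52 from 3D (adjusted p = 0.00733), but the former missed the threshold once tissue replicate 2 or any 1 of the 2D arrays was left out (adjusted p up to 0.0801). The second probe set of Smad2 was called higher in tissue in both comparisons. Smad1, Smad4 and Smad9 passed no test on the probe set that stood for them. Smad1 had means of 11.22, 11.07 and 10.96 in 2D, 3D and tissue, Smad4 of 10.51, 10.52 and 10.77, and Smad9 stayed between 3.90 and 4.99 on all 12 arrays.

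The Id genes were lower in tissue on the probe sets that stood for them, 3 of 4 against 2D and all 4 against 3D. Of all genes, 14.3% and 20.1% were lower. Id1 read 10.18, 10.49, 10.86 and 10.52 in 2D, 11.02, 11.28, 11.30 and 11.37 in 3D, and 8.87, 7.95, 6.61 and 9.06 in tissue. Its groups did not overlap in any of the 3 comparisons, with 3D at the top and tissue at the bottom. Tissue was 5.24-fold below 2D (-2.39, SE 0.48, adjusted p = 0.0105) and 8.69-fold below 3D (-3.12, SE 0.47, adjusted p = 0.00145), and -1.55 and -2.28 without tissue replicates 2 and 3 (adjusted p = 0.00435 and 8.91e-06). Id4 read 9.09, 8.59, 9.51 and 9.27 in 2D, 10.01, 9.12, 8.72 and 9.36 in 3D, and 8.35, 7.44, 7.15 and 8.26 in tissue. The tissue arrays were below the culture arrays, with differences of -1.31 (adjusted p = 0.0196) and -1.50 (adjusted p = 0.0107), and the former was lost without 2D replicate 3 or 4 or tissue replicate 2 (adjusted p up to 0.0641). Id3 had means of 11.31 ± 0.46, 11.71 ± 0.13 and 10.06 ± 0.57 in 2D, 3D and tissue, with adjusted p of 0.0255 and 0.00176, and the former was lost without 2D replicate 1 or 4 or tissue replicate 2 (adjusted p up to 0.067). Id2 stood at 10.75 ± 0.39, 11.45 ± 0.42 and 10.27 ± 0.30, lower in tissue than in 3D (-1.18, adjusted p = 0.0055), with a difference from 2D of -0.48 (adjusted p = 0.155). Its call against 3D was lost under cyclic loess (-0.73, adjusted p = 0.115) and the further quantile normalization (-0.88, adjusted p = 0.0552).

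**Figure D3:**
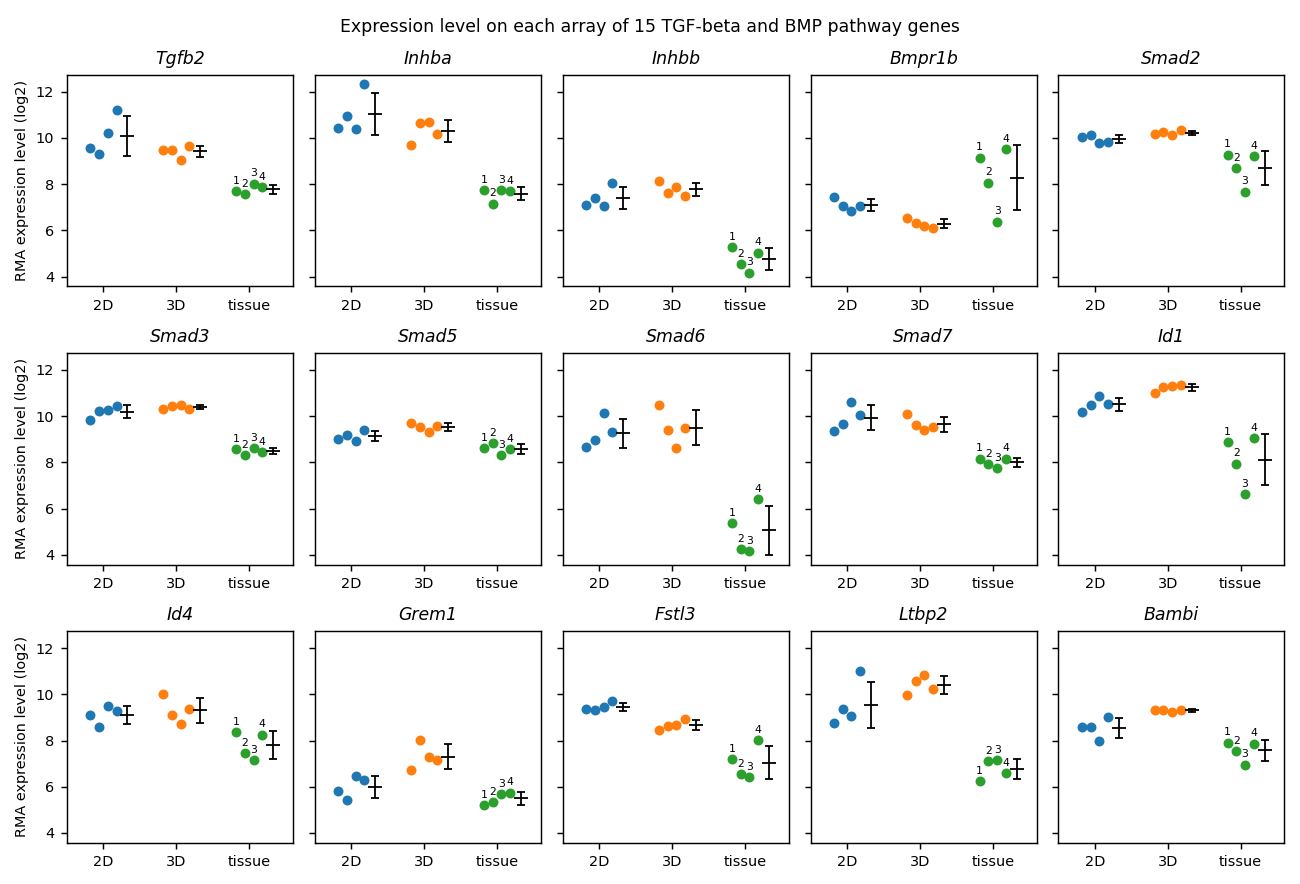
Expression level (RMA, log2) on each of the 12 arrays for 15 pathway genes, with points for arrays in the order of replicates 1 to 4, bars for the mean ± SD of a group and the replicate number printed beside each tissue array. Smad6, Inhba, Inhbb, Smad3 and Ltbp2 show tissue clear of both cultures, while Bmpr1b and Id1 show tissue replicate 3 as the lowest tissue array, at 6.38 and 6.61.

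The promoter windows of Smad6, Id2, Id3 and Id4 are shown because these genes are classical targets of the pathway and were lower in tissue than in 3D on the probe sets that stood for them. Against 2D this held for Smad6, Id3 and Id4 and not for Id2, and another probe set of Id4 was higher than in 3D. Each runs from 250 bases before the RefSeq transcript start to 50 bases from it (GRCm38.p6) and is written 5′ to 3′ on the strand of the gene. Capitals mark matches, on either strand, to the Smad palindrome GTCTAGAC, to the GC-rich motif GGCGCC linked to Smad1 and Smad5, and to its variant GGAGCC, none of which overlap in these windows. Windows were at hand for 29 of the 42 members and not for Id1, Smad7 or Bambi.
Smad6, chr9:64022010-64022309, minus strand: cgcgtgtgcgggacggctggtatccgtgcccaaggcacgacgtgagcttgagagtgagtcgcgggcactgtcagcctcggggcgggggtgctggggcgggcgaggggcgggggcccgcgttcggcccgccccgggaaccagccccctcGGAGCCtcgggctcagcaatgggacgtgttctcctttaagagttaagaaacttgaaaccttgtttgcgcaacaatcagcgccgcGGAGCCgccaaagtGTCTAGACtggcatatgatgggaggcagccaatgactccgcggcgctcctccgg
Id2, chr12:25096043-25096342, minus strand: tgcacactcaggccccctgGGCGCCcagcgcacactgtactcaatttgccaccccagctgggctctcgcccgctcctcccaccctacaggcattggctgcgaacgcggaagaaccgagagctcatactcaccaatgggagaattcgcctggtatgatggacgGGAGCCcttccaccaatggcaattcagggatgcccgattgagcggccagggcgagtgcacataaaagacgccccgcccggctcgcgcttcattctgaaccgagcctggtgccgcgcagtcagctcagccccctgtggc
Id3, chr4:136143572-136143871, plus strand: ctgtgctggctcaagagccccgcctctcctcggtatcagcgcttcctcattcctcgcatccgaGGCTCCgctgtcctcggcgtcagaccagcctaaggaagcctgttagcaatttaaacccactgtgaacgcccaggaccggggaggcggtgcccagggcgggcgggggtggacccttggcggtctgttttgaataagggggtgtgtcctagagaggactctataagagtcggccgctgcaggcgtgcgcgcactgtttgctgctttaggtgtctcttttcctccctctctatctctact
Id4, chr13:48260866-48261165, plus strand: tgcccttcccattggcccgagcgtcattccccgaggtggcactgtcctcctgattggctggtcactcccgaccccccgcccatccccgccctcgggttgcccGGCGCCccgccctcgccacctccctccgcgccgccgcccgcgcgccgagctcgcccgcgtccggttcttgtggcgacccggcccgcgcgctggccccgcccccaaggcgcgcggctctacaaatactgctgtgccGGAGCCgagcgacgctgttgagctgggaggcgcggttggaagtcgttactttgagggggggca

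The Smad6 window holds the palindrome GTCTAGAC, which begins 4 bases before the start. It was the only member window with that palindrome, of 35 windows of 29 members, and 70 of 32851 windows of all genes (0.213%) hold it. GGCGCC begins 231 bases before the start of Id2 and 148 before that of Id4, and 10 of 35 member windows (28.6%) and 11.9% of all windows hold it. GGAGCC lies in all 4 windows shown, at 102 and 18 bases before the start of Smad6, 88 before that of Id2, 187 before that of Id3 (as GGCTCC) and 13 before that of Id4. It is common, with 18 of 35 member windows (51.4%) and 30.8% of all windows. The CAGA box, searched as CAGACA, is in none of the 4, in 7 of 35 member windows (20%) and in 21.0% of all windows. A match is a stretch of letters and was not tested for binding.

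Of the 6 extracellular antagonists and binding proteins, 1 was lower in tissue against 2D and 2 were lower against 3D, and 0 were higher. Of all genes, 14.3% and 20.1% were lower, so the count against 2D lay near the share of all genes. Fstl3, a secreted binder of activins and myostatin, read 9.38, 9.33, 9.46 and 9.72 in 2D, 8.44, 8.64, 8.69 and 8.92 in 3D, and 7.20, 6.56, 6.43 and 8.01 in tissue. The 3 groups did not overlap, with 2D at the top and tissue at the bottom. Tissue was 5.36-fold below 2D (-2.42, SE 0.33, adjusted p = 0.00181) and 3.08-fold below 3D (-1.62, SE 0.32, adjusted p = 0.0056). Grem1, a secreted BMP antagonist, read 5.81, 5.42, 6.46 and 6.31 in 2D, 6.73, 8.01, 7.31 and 7.16 in 3D, and 5.19, 5.35, 5.68 and 5.75 in tissue. The 3D arrays were above all others, and tissue was 3.51-fold lower than 3D (-1.81, SE 0.27, adjusted p = 0.00122) and overlapped 2D (-0.51, SE 0.25, adjusted p = 0.162).

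The activin binder Fst and the BMP antagonists Nog and Chrd passed no test, nor did Fstl1 on the probe set that stood for it. Their means in 2D, 3D and tissue were 10.44, 10.06 and 9.77 for Fst, 5.55, 5.68 and 5.34 for Nog, 6.83, 6.83 and 6.92 for Chrd, and 12.72, 12.63 and 11.33 for Fstl1 (adjusted p = 0.0614 and 0.0558). Leaving out 2D replicate 2 brought Fst past the threshold against 2D (adjusted p = 0.0444), and Fstl1 passed both tests without tissue replicate 1 or 4. Nog and Smad9 were the only members that did not reach a log2 value of 6 on at least 4 arrays.

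Of the 3 latent TGF-β binding proteins, Ltbp2 was lower against both cultures and Ltbp1 against 3D, where 14.3% and 20.1% of all genes were lower against 2D and 3D. Ltbp2 read 8.76, 9.37, 9.06 and 11.00 in 2D, 9.99, 10.57, 10.84 and 10.24 in 3D, and 6.26, 7.10, 7.15 and 6.60 in tissue. No tissue array reached a culture array, and 2D replicate 4 was the highest of the 12. Tissue was 6.82-fold below 2D (-2.77, SE 0.46, adjusted p = 0.0045) and 12.4-fold below 3D (-3.63, SE 0.25, adjusted p = 2.78e-05). Ltbp1 had means of 9.13 ± 0.91, 10.09 ± 0.37 and 8.32 ± 0.49, lower in tissue than in 3D (-1.77, adjusted p = 0.00151), and its difference of -0.81 from 2D passed only without 2D replicate 3 (adjusted p = 0.0272). Ltbp3 stood at 11.72 ± 0.14, 11.66 ± 0.11 and 11.02 ± 0.81, and without tissue replicates 2 and 3 it was lower in tissue, with differences of -1.34 and -1.29 (adjusted p = 0.00217 and 6.66e-05).

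Bambi, a pseudoreceptor that dampens signalling and is itself a target of the pathway, read 8.57, 8.60, 8.0 and 9.04 in 2D, 9.33, 9.33, 9.22 and 9.33 in 3D, and 7.91, 7.54, 6.96 and 7.87 in tissue. The groups were ordered 3D, 2D and tissue with no overlap. Tissue differed by -1.73 from 3D (adjusted p = 0.000454) and by -0.98 from 2D (adjusted p = 0.0351), and the latter missed the threshold when 2D replicate 1, 2 or 4, or else tissue replicate 2 or 3, was left out (adjusted p up to 0.0924). Skil, a nuclear repressor of Smad activity, had means of 11.72 ± 0.24, 11.86 ± 0.14 and 10.61 ± 0.36, 2.16-fold lower in tissue than in 2D (-1.11, adjusted p = 0.00812) and 2.37-fold lower than in 3D (-1.25, adjusted p = 0.00144). Skil missed the threshold against 2D under each of the 3 other scalings (-0.83, -0.65 and -0.84, adjusted p = 0.0505, 0.148 and 0.0567) and against 3D under cyclic loess (-0.80, adjusted p = 0.06).

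Between 3D and 2D no member passed the adjusted test, although for some the 2 cultures stood apart on every array. The smallest adjusted p was 0.119, of Fstl3, and at an unadjusted p under 0.05 there were 8 members higher and 3 lower in 3D (11 of 42), where 13.1% of all genes passed in either direction. Arrays of the 2 cultures did not overlap for 6 members, 4 higher in 3D (Bmpr1a, Id1, Grem1 and Bambi) and 2 lower (Bmpr1b and Fstl3), where 4.49% and 2.87% of all genes showed this (7.36% in all). Grem1 was 2.47-fold higher in 3D (difference 1.30, SE 0.30, adjusted p = 0.197) and Id1 1.66-fold higher (0.73, SE 0.14, adjusted p = 0.169). Bambi differed by 0.75 (SE 0.19, adjusted p = 0.217), Bmpr1b by -0.80 (SE 0.14, adjusted p = 0.148) and Fstl3 by -0.80 (SE 0.12). With array quality weights, Id1, Grem1 and Bambi passed as higher in 3D and Bmpr1b and Fstl3 as lower (adjusted p from 0.0256 to 0.0389), among 312 genes. Leaving out 2D replicate 4 and 3D replicate 1 called these 5 with Tgfb1 (0.85, adjusted p = 0.0331) and Ltbp2 (1.49, adjusted p = 0.0118) as higher, among 1357 genes. The Gapdh excess on these 2 arrays was 0.72 and 0.48, inside the range of the other culture arrays (0.36 to 1.27). The median correlation of 3D replicate 1 with its own group was the lowest in 3D (0.992, the others 0.996). That of 2D replicate 4 (0.981) was not the lowest in 2D, where replicate 3 had 0.977.

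A different probe set of the same gene gave another answer for some members, 28 of which have several. Of the called members with several, 16 against 2D and 20 against 3D, another probe set was called the same way for 9 and 10, the opposite way for 1 and 2, and no other was called for 6 and 8. Those 6 were Bmp7, Id4, Inhba, Inhbb, Smad7 and Tgfb1. The 8 were Acvr2a, Bmp7, Inhba, Inhbb, Ltbp1, Smad7, Tgfb1 and Tgfbr1. The opposite calls were those of Smad2, whose second probe set was higher in tissue by 0.95 (adjusted p = 0.00714) and 0.78 (adjusted p = 0.0035), and of Id4 against 3D (0.69, adjusted p = 0.0405). The direction of these 2 genes therefore depends on the probe set. Smad4, uncalled on its own probe set, was lower on the other 2, with differences of -1.50 and -0.67 from 2D (adjusted p = 0.0492 and 0.0403) and of -1.60 and -0.76 from 3D (adjusted p = 0.0272 and 0.0109). A second probe set of Id2 was lower than in 2D (-2.47, adjusted p = 0.028), the other 3 of Ltbp3 were lower against both cultures, and a second of Fstl1 was lower too (-2.08 and -1.88, adjusted p = 0.0459 and 0.0479). Bmpr1b, uncalled against 2D on its own probe set, was called higher there on 1 other of its 3. Eng, uncalled against 3D on its own, was called lower there on its second.

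**Figure D4:**
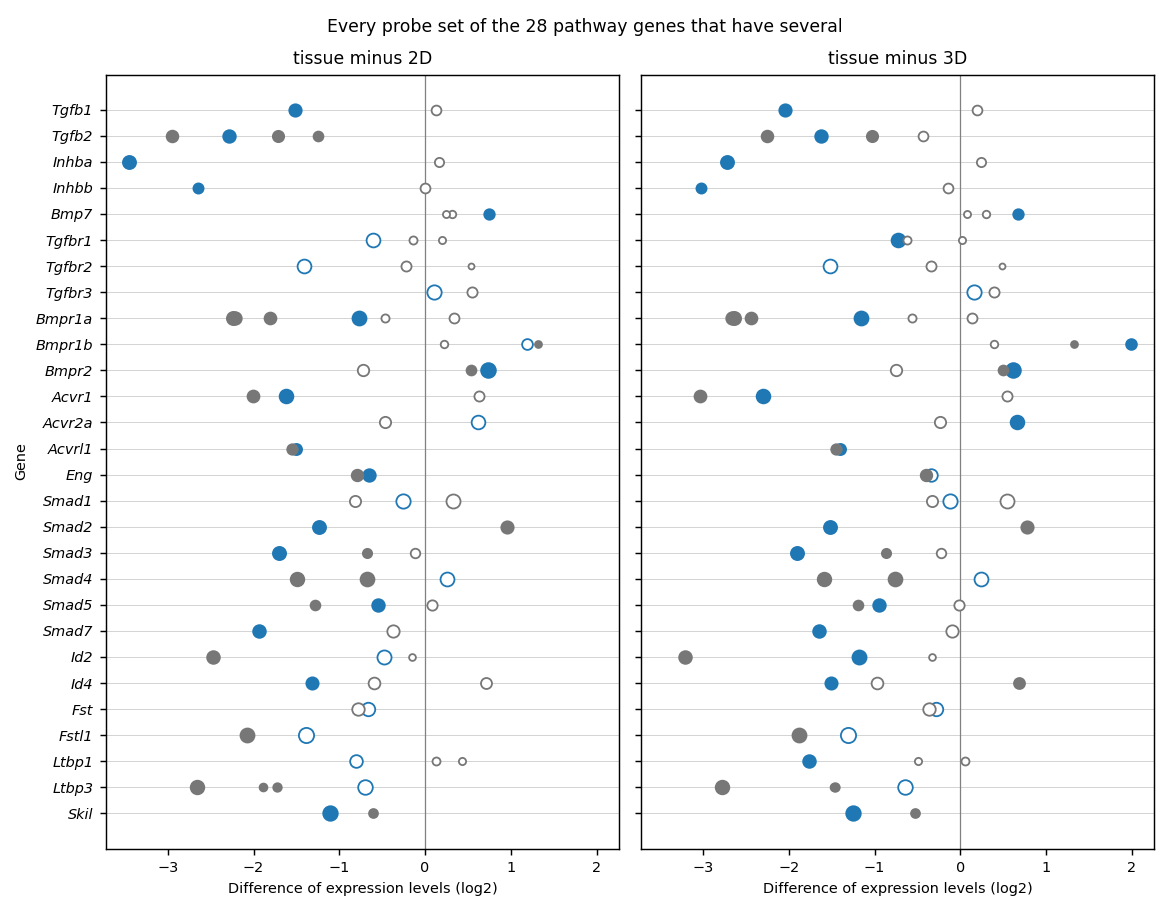
Difference of expression level (log2) of tissue from 2D and from 3D for every probe set of the 28 members that have several, with blue circles for the probe set of highest mean and grey for the others, circle size growing with mean level and filled circles for an adjusted p under 0.05. Smad2 has filled circles on both sides of 0 in both panels, and Smad4 has 2 filled grey circles to the left of its open blue one.

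Of the rest of the pathway, 109 of 121 genes on a list were measured. Against 2D, 33 (30.3%) were lower in tissue and 15 (13.8%) higher, where 14.3% and 9.87% of all genes were. Against 3D, 38 (34.9%) were lower and 18 (16.5%) higher, where 20.1% and 15.5% of all genes were, so that the higher share lay near that of all genes. Between 3D and 2D limma called 0, with 14 higher and 8 lower at an unadjusted p under 0.05. Among 31 target genes 15 were lower in tissue against each culture, and 4 and 6 were higher, whereas among 18 ligands 1 was lower against each culture and 5 and 6 were higher. Of 26 intracellular regulators, 10 were lower against 2D and 13 against 3D, and 0 were higher. Ccn2, the matrix protein connective tissue growth factor and a classical TGF-β target, had means of 12.65 ± 0.48 in 2D, 11.97 ± 0.22 in 3D and 7.55 ± 0.25 in tissue (differences -5.11 and -4.42, adjusted p = 1.79e-05 and 1.76e-06). Timp1, which restrains matrix metalloproteinases, stood at 12.34 ± 0.57, 12.77 ± 0.24 and 6.13 ± 0.62 (adjusted p = 3.91e-05 and 3.07e-06). Runx1, a transcription factor, and Tgif1, a corepressor of Smads, were lower than in 2D (-4.24 and -3.82, adjusted p = 0.000118 and 8.08e-05), and Thbs1, an activator of latent TGF-β, and Lox, a collagen crosslinking enzyme, were lower than in 3D (-4.04 and -4.72, adjusted p = 2e-06 and 9.22e-06).

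Markers of several cell types also differed between tissue and culture. Some of these markers are in the list of the rest of the pathway too and are counted in both. They are 4 of 7 fibroblast markers, 2 of 7 smooth muscle and pericyte markers and 2 of 7 sympathetic neuron markers. All 5 markers of dividing cells were lower in tissue against each culture, with a summed level of 7.85 to 8.43 in tissue and 11.9 to 12.6 in culture, and Top2a at 5.32 to 5.91 against 9.72 to 10.23. Of 7 smooth muscle and pericyte markers 3 were lower and 1 higher against 2D, and 2 lower and 1 higher against 3D, with sums of 12.7 to 12.9 in tissue, 13.5 to 14.8 in 2D and 13.0 to 13.6 in 3D, and Acta2 at 10.06 to 10.71 in tissue. Of 7 fibroblast markers 1 was lower against each culture and 2 and 1 were higher, and Col1a1 was 9.26 and 9.01 on tissue replicates 2 and 3 and 12.20 and 12.71 on the others. Skeletal muscle markers were higher for 3 of 6 against each culture, with Myh1 at 4.38 on tissue replicate 1, 10.26 to 11.23 on the other tissue arrays and 3.32 to 3.92 in culture. Sympathetic neuron markers were higher for 2 of 7 against 2D and 5 of 7 against 3D, and 0 were lower. Satellite glia markers were higher for 1 and 2 of 5 and lower for 1 against each culture, and macrophage markers were higher for 0 and 3 of 6 and lower for 2. The part of these cell types in the pathway genes' differences was not tested.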

How the data were processed

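RNA of 12 samples was hybridised to Affymetrix whole-genome mouse arrays. The authors made the deposited log2 values with RMA in Expression Console, with a version not given in the sources used here. RMA corrects background, quantile-normalizes and summarises each probe set. Of the probe sets, 64 controls were left out and 45037 tested. The platform table gave 1 gene symbol to 34945, several to 932 and none to 9160. Each of 18193 genes was represented by its probe set of highest mean over the 12 arrays.

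Groups were taken from the labels. Each pair of groups was fitted alone with limma 3.58.1 (R 4.3.3, statmod 1.5.0) and Benjamini-Hochberg adjustment over all 45037 probe sets, with a threshold of 0.05, and the genes were then counted on their own probe set. Standard errors are those of the moderated fit. The fit was tested on simulated data. The labels call the replicates biological, and their number limits the precision. No pair of arrays held identical values. Scan dates were not used here.

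The members and lists were chosen with earlier results of these data known. Values on each array are given for 15 members: those among the 6 smallest adjusted p of any comparison, and those whose called probe sets disagree in direction. Of other pathway genes, any of the 4 smallest adjusted p of a comparison may be named, and of each marker list its first gene. Alternatives were other scalings, filters, probe sets per gene, array quality weights, a replicate block, the methods' t-test, a minimum difference and omitted arrays. Promoter windows are those of RefSeq on GRCm38.p6.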

Additional observations from a re-analysis of the deposited data

Results flagged for a closer look

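In 9 of 126 groups of 4 arrays, 1 array lay far from the other 3 by the criterion of Dixon at the 95% level, where chance alone marks about 1 in 20 groups. Of these values, 3 belong to Fst, the activin binder, whose lowest array was 2D replicate 2 at 9.62 (the others 10.61 to 10.78), 3D replicate 3 at 9.74 (10.15 to 10.17) and tissue replicate 3 at 9.17 (9.90 to 10.04). Replicate 1 of 3D was the lowest 3D array for Tgfb1 at 9.33 (9.80 to 9.88), Ltbp1 at 9.55 (10.22 to 10.35) and Ltbp3 at 11.50 (11.70 to 11.73). Inhba read 7.16 on tissue replicate 2 (7.70 to 7.74). Id3 read 11.91 on 3D replicate 2 (11.62 to 11.66), and Bambi 9.22 on 3D replicate 3 (9.33 on the others).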

How the results depend on the processing

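Members called lower in tissue than in 2D numbered 20, and 13 after a further quantile normalization of the deposited values (chosen after seeing the data), 10 with the methods' t-test after adjustment, 13 without tissue replicates 2 and 3, and 11 without 2D replicate 4. The share of all genes lower than in 2D was 14.3%, and in the same order 11.3%, 8.56%, 12.3% and 8.60%. Members higher than in 2D numbered 2, and 4 with centred arrays or array quality weights, 1 with the probe set of highest SD or without 2D replicate 4, and 0 with a minimum difference of 1. Members higher than in 3D numbered 4, and 2 with the mean of the probe sets, 1 with the adjusted t-test, a minimum difference of 1 or without 3D replicate 1, and 7 without tissue replicates 2 and 3. Between the cultures, where 0 members were called, array quality weights gave 3 higher and 2 lower, and 5 higher and 2 lower were found both with the unadjusted t-test and without 2D replicate 4 and 3D replicate 1. In either direction, 312 of all 18193 genes passed with the weights, 2118 with the unadjusted t-test and 1357 without those 2 arrays. The adjusted t-test gave 0. Other pathway genes between the cultures were 3 higher with weights, 12 higher and 5 lower with the unadjusted t-test, and 7 higher and 3 lower without those 2 arrays. Other pathway genes higher than in 2D were 8 with a filter at a log2 value of 7 or a minimum difference of 1, and those higher than in 3D were 9 and 7. The cause of these shifts was not tested.

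Leaving out 1 array at a time gave 1 to 4 members higher and 11 to 21 lower against 2D, and 1 to 5 higher against 3D. The share of all genes lower against 2D ranged from 8.11% to 17.3% in these fits. Other pathway genes higher numbered 0 to 1 in 3D against 2D (1 without 2D replicate 4), 9 to 17 against 2D (9 without 2D replicate 2) and 11 to 20 against 3D (11 without 3D replicate 4). Under the 3 other scalings, signs turned for uncalled differences of Bmp2, Smad1, Smad9 and Nog from 2D, of Tgfb3, Bmp2, Bmp6, Eng, Smad1, Smad9 and Fst from 3D, and of Chrd between the cultures. Among the 15 members given by array, signs turned for uncalled differences of 3D from 2D: Smad5 with the probe set of highest SD (-0.09), Smad6 without 3D replicate 1 (-0.094, range to 0.53) or without 2D replicate 4 and 3D replicate 1 (-0.08), and Id4 without 3D replicate 1 (-0.048, range to 0.38).

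Same-numbered replicates correlated at -0.07 to 0.41 after removal of group means, and the number's own partner was the closest in 6 of 12 comparisons. Replicate 1 was closest to its own number in each pair of groups (0.41, 0.35 and 0.21). These values do not settle whether the numbers pair the samples. The labels do not state a pairing, and the main fit uses none. With a replicate block, 1 member was higher and 22 were lower than in 2D, 4 and 23 against 3D, and 0 between the cultures.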
